A study of Mus musculus with 6 samples.

Results

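The 42 genes described here mark endothelial cells, the lining of blood and lymph vessels, or carry the signals that make vessels grow. They were taken by gene symbol from a list of endothelial and angiogenesis genes. All 42 were found among the 34745 genes of the deposited table. Of these, 40 had a mean of at least 0.5 FPKM (fragments per kilobase of gene, scaled to the library size) over the 6 libraries and were tested. The transcription factor genes Sox17 and Tal1 lay below that level.

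The libraries came from 6 tumours that grew after Hep1-6 cells, a mouse hepatoma line, were injected under the skin of C57BL/6J mice. The mice ate a high cholesterol diet (HCD, 3 tumours) or a normal diet (ND, 3 tumours); the labels name no transgene or drug, and give no age, sex or time of harvest. All tumours share 1 cell line as their source. The labels do not tie tumours to animals, so a p-value here speaks only of the scatter among these 6 samples. Bulk RNA does not tell fewer cells of a type from less RNA per cell, and the hepatoma cells may express some of these genes themselves, which was not tested.

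Vessels in tumours form mainly by sprouting from host vessels. VEGF ligands bind the receptor tyrosine kinases encoded by Flt1, Kdr and Flt4, with neuropilins as co-receptors, and drive endothelial cells to divide and migrate. Angiopoietins act on the receptor encoded by Tek and tune vessel stability, while Notch signalling through Dll4 restrains sprouting next to a leading tip cell. ETS factors such as ERG and FLI1 bind DNA at a core GGAA and maintain endothelial identity, and VEGFA is a known target of hypoxia signalling.

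Library sizes read from the steps of the values were 20351634 to 20918325 fragments in HCD and 20622728 to 26228074 fragments in ND. At 1 FPKM and 2 kb of gene length this corresponds to 40.7 to 52.5 reads. The number of genes at 1 FPKM or more was 11495 to 12050, and log2 values correlated at 0.96 to 0.986 between libraries. The hepatoma genes Alb and Krt18 were abundant in all 6 libraries, at 1439 ± 250 and 1188 ± 120 FPKM in HCD, against 1375 ± 155 and 1271 ± 174 FPKM in ND (SD, n = 3 each). Of 10 hepatoma genes 8 were tested. The other 2, Apoa2 and Serpina1a, known products of mature hepatocytes, lay below 0.5 FPKM on average. Among those tested, Rbp4 averaged 252 ± 25.2 FPKM in HCD and 262 ± 3.81 FPKM in ND. Apoa1 averaged 40.1 ± 7.48 FPKM in HCD and 42.4 ± 19.2 FPKM in ND (SD, n = 3 each).

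Upstream sequence was matched by symbol for 27 of the 42 genes, in 34 windows of 250 bases before an annotated start (RefSeq, GRCm38.p6). Shown here are Emcn and Tek, which were highest in HCD 2 with most of the endothelial genes, and Esm1 and Apln, which were in addition lowest in HCD 1 and ND 2. Capitals mark AGGAA on the printed strand or its complement TTCCT, letters that hold the core GGAA of ETS factors; the sequences run 5′ to 3′ and end at the base before the start.

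Emcn, chr3:137340828-137341077 (plus strand): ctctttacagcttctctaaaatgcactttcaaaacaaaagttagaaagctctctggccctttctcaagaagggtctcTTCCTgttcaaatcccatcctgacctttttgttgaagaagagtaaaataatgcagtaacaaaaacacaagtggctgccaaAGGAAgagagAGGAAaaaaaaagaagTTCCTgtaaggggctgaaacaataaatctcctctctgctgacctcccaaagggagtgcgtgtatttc

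Tek, chr4:94739039-94739288 (plus strand): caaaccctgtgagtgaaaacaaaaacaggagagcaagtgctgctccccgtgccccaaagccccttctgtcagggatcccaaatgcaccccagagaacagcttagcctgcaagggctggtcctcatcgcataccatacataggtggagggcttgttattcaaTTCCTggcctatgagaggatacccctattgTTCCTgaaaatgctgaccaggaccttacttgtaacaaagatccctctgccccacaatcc

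Esm1, chr13:113209409-113209658 (plus strand): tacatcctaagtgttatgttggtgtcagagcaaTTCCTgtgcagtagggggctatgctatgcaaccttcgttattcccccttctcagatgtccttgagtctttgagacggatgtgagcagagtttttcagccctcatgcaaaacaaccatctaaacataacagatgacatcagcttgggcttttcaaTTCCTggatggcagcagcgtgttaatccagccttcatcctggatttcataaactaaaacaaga

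Apln, chrX:48034854-48035103 (minus strand): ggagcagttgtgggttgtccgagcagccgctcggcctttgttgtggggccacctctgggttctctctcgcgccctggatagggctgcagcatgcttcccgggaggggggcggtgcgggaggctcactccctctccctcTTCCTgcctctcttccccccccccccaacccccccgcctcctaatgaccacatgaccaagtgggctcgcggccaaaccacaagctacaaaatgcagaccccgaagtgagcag

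AGGAA occurred on either strand in 20 of the 34 windows, a share of 58.8%, against 60.3% of all 32851 windows of the same length. ACGTG, a core of the site bound by hypoxia-inducible factors, occurred on either strand in 2 of the 34 windows, 5.88%, against 16.6% of all windows. A match describes the sequence only. Of the windows shown, only that of Emcn overlaps an annotated exon of GENCODE M21, by 11 bases. Some other windows in the shares overlap exons more. All 250 bases do so for Flt4, Rasip1 and Pgf, 218 in 1 window of Vegfa and 212 for Tie1, while many windows have 0. The shares of the 34 windows thus include exon sequence.

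HCD was compared with ND to ask whether dietary cholesterol goes with a difference in vessel genes of the tumours. No member was called: limma gave 0 of 40 tested members an adjusted p under 0.05, with 0.794 as the lowest, and over all 13417 genes tested the share called was 0.0%. At an unadjusted p under 0.05 there was 1 member higher, Nrp2, against 2.56% of all genes, and 1 lower, Flt4, against 3.32% of all genes. The mean was higher in HCD for 34 of 40 members, or 85.0%, against 55.7% of all genes tested. The median log2 difference of the members was 0.17, against 0.02 over all genes tested, and single differences ranged from -0.38 for Flt4 to 0.41 for Eng and Cldn5. The median half-width of the 95% interval was 0.47 for members and 0.23 for all genes tested. Without HCD 2 the mean was higher in 23 of 40 members, or 57.5%, against 54.0% of all genes, and the median member difference was 0.03, against 0.01. Without HCD 1 and ND 2 it was higher in 32 of 40 members, against 54.5% of all genes, with a median of 0.26.

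**Figure D1:**
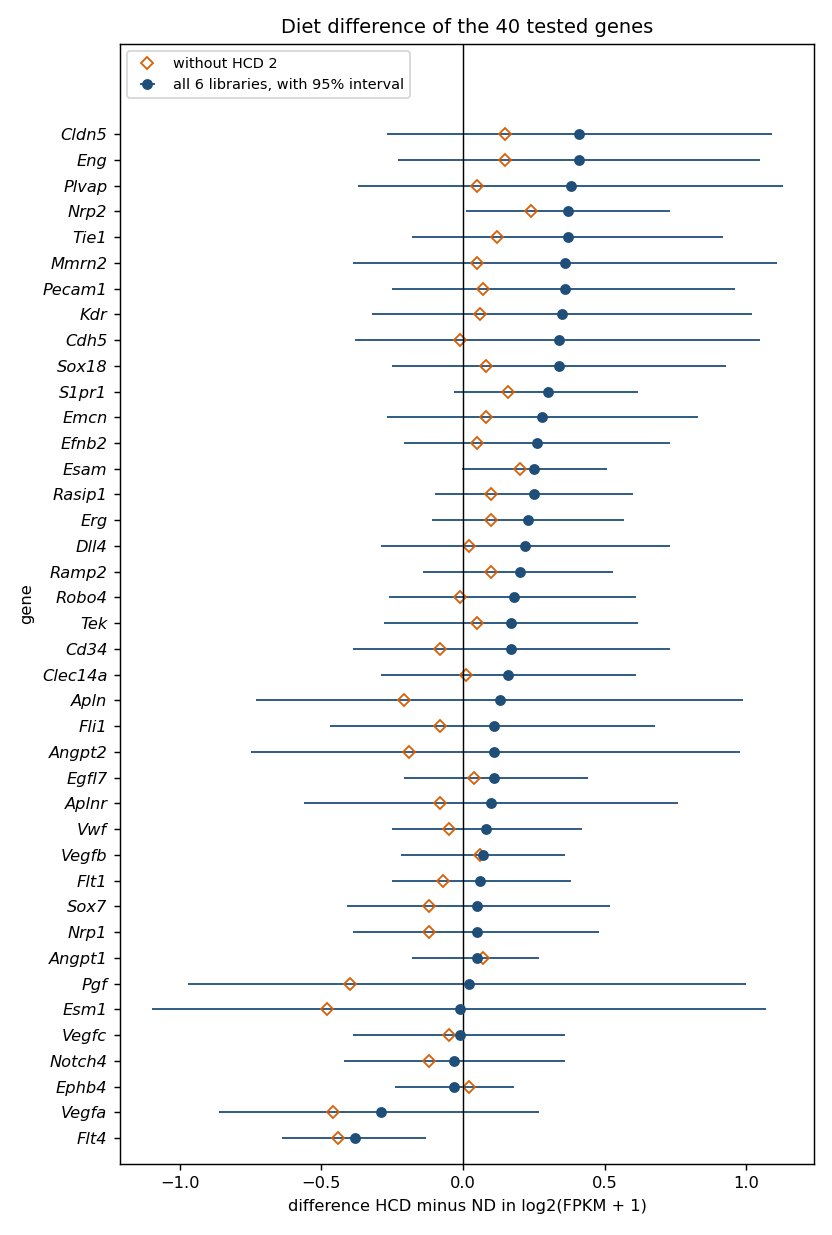
Difference between HCD and ND in log2(FPKM + 1) for the 40 tested genes, with filled points for the limma estimate from 6 libraries, bars for its 95% interval, and open diamonds for the estimate without HCD 2. The intervals of Flt4 and Nrp2 lie on 1 side of 0, and most diamonds lie nearer to 0 than the filled points.

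HCD 2 stood apart in these genes. It was the highest of the 6 libraries in 33 of 40 tested members, 82.5%, against 24.0% of all genes tested. The value in HCD 2 was 1.73 times the mean of the other 5 libraries for the median member, against 0.996 times for the median of all genes tested. The ratio ran from 0.902 for Flt4 to 2.29 for Pgf. The 7 tested members that peaked elsewhere were Vegfc and Angpt1, highest in HCD 1 (20.9% of all genes), and Flt4, Vegfa, Vegfb, Notch4 and Ephb4, highest in ND 1 (17.4% of all genes). No tested member was highest in HCD 3, ND 2 or ND 3, where 13.3%, 12.1% and 12.3% of all genes were. The lowest value fell in HCD 1 for 5 members, in HCD 2 for 1 and in HCD 3 for 10, against 13.2%, 19.5% and 16.9% of all genes. It fell in ND 1 for 14 members, in ND 2 for 9 and in ND 3 for 1, against 27.0%, 10.6% and 12.8% of all genes.

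**Figure D2:**
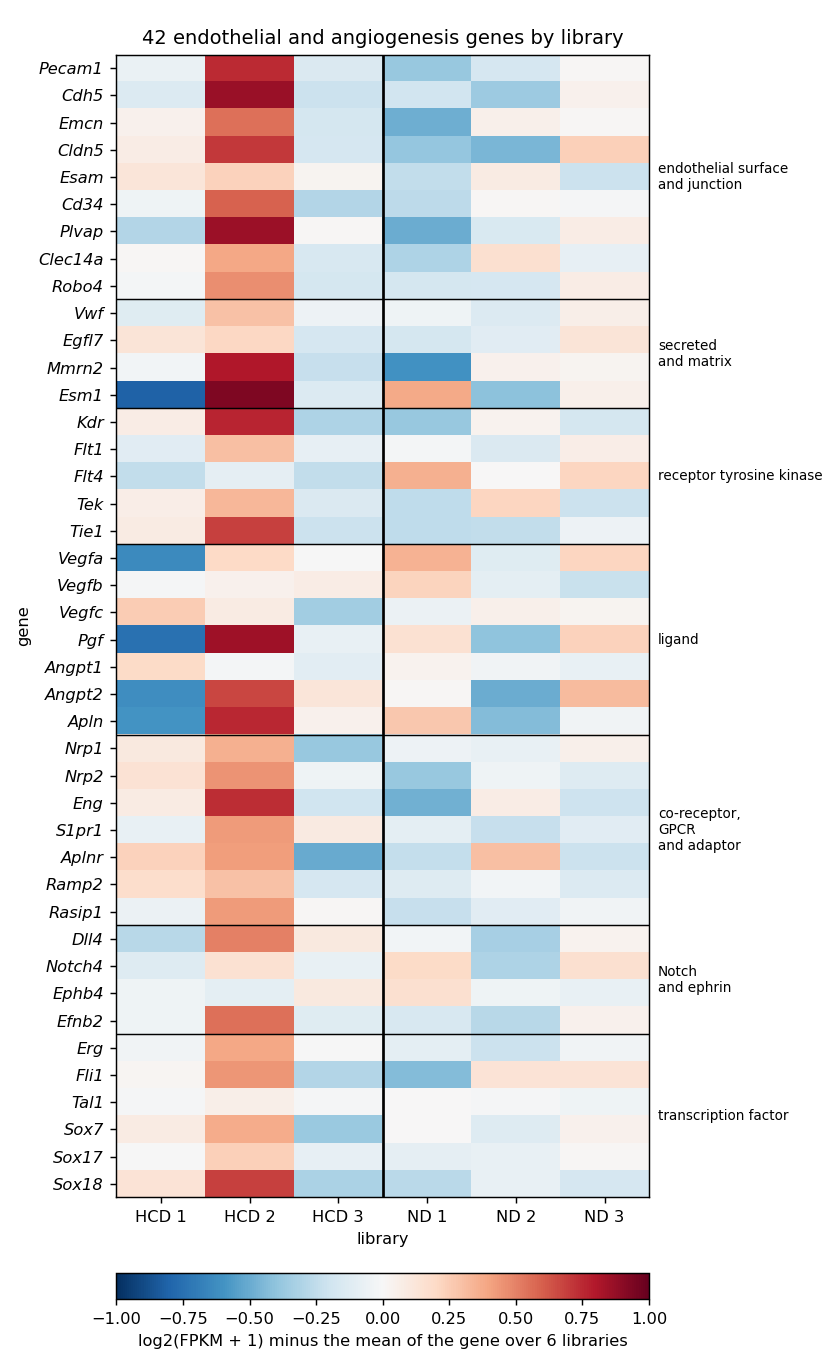
Heat map of the 42 genes (rows, grouped by role) in the 3 HCD and 3 ND libraries (columns), coloured by log2(FPKM + 1) minus the mean of the gene over the 6 libraries. The HCD 2 column is red in nearly every row, while Esm1, Vegfa, Pgf, Angpt2 and Apln are blue in HCD 1 and ND 2.

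For the endothelial surface and junctions the HCD mean exceeded the ND mean in 9 of 9 genes, by a median of 0.28 (log2). Cdh5, which encodes VE-cadherin of the adherens junction, was at 13.1, 27.2 and 12.4 FPKM in HCD 1 to HCD 3, against 12.6, 11.1 and 15.0 FPKM in ND 1 to ND 3. HCD 2 alone lay above all ND values, and the other HCD values fell within the ND range (log2 difference 0.34, 95% interval -0.38 to 1.05, limma adjusted p = 0.818). Without HCD 2 the Cdh5 difference was -0.01. Pecam1, which encodes the adhesion molecule CD31, was at 6.95, 13.0 and 6.56 FPKM in HCD 1 to HCD 3, against 5.4, 6.43 and 7.43 FPKM in ND 1 to ND 3 (log2 difference 0.36, adjusted p = 0.795; 0.07 without HCD 2). Again only HCD 2 exceeded the ND range.

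Plvap, which encodes the diaphragm protein of fenestrated endothelium, was at 16.9, 38.7 and 21.1 FPKM in HCD 1 to HCD 3, against 14.6, 18.8 and 22.1 FPKM in ND 1 to ND 3. HCD 1 and HCD 3 lay inside the ND range, and the difference of 0.38 (adjusted p = 0.806) was 0.05 without HCD 2. Esam, a junctional adhesion molecule of endothelium and platelets, varied less, at 18.5, 20.0 and 17.2 FPKM in HCD 1 to HCD 3, against 14.1, 17.9 and 14.4 FPKM in ND 1 to ND 3. The groups overlapped through ND 2 and HCD 3, and the difference of 0.25 (adjusted p = 0.794) was 0.20 without HCD 2. The sialomucin gene Emcn and the tight junction gene Cldn5 differed by 0.28 and 0.41, and by 0.08 and 0.15 without HCD 2. Cd34, Robo4 and Clec14a differed by 0.17, 0.18 and 0.16, and each was highest in HCD 2.

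Among secreted and matrix proteins, Mmrn2, whose product binds CLEC14A in the vessel matrix, was at 4.57, 8.87 and 3.84 FPKM in HCD 1 to HCD 3, against 2.73, 4.84 and 4.77 FPKM in ND 1 to ND 3 (log2 difference 0.36, adjusted p = 0.813; 0.05 without HCD 2). Vwf, which encodes von Willebrand factor, was low, at 0.565, 1.09 and 0.646 FPKM in HCD 1 to HCD 3, against 0.655, 0.550 and 0.773 FPKM in ND 1 to ND 3. These Vwf values rested on 228 to 442 reads in HCD and 286 to 316 reads in ND, and its difference of 0.08 was -0.05 without HCD 2. Egfl7, which encodes a secreted vessel matrix protein, averaged 1.79 ± 0.362 FPKM in HCD and 1.58 ± 0.297 FPKM in ND (SD, n = 3 each).

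The receptor tyrosine kinases did not share 1 direction. Kdr, which encodes VEGFR2, the main signalling receptor for VEGFA, was at 3.79, 6.73 and 2.68 FPKM in HCD 1 to HCD 3, against 2.5, 3.67 and 3.03 FPKM in ND 1 to ND 3. HCD 1 and HCD 2 lay above the ND values and HCD 3 among them (log2 difference 0.35, adjusted p = 0.805; 0.06 without HCD 2). Flt1, which encodes VEGFR1, was at 3.63, 5.18 and 3.73 FPKM in HCD 1 to HCD 3, against 3.96, 3.53 and 4.26 FPKM in ND 1 to ND 3, with a difference of 0.06 (adjusted p = 0.914). The TIE receptor genes Tie1 and Tek averaged 4.44 ± 1.8 and 0.609 ± 0.269 FPKM in HCD, against 3.08 ± 0.334 and 0.432 ± 0.268 FPKM in ND (SD, n = 3 each).

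Flt4, which encodes VEGFR3, the receptor for VEGFC known from lymphatic vessels and angiogenic sprouts, had the lowest p of the members. It was at 5.24, 5.94 and 5.23 FPKM in HCD 1 to HCD 3, against 8.43, 6.42 and 7.58 FPKM in ND 1 to ND 3. All HCD values lay below all ND values, which held for 6.13% of all genes tested and for no other member. The log2 difference was -0.38 (SE 0.104, 95% interval -0.64 to -0.13), with an unadjusted p of 0.00932 in limma, and it did not pass over all genes (adjusted p = 0.794). Leaving out single libraries gave -0.48 to -0.30, the smallest difference without ND 1, and leaving out HCD 1 and ND 2 together gave -0.45.

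Of 5 tested genes of lymphatic endothelium 4 had a higher mean in HCD, with a median log2 difference of 0.15, and 0 were called. Reln lay below the level for testing, and another entry of Ccl21a was at 0.0 FPKM in every library. Ccl21a and Mmrn1 had the largest differences, 1.14 and 0.72 (limma adjusted p = 0.794 for both). Mmrn1 averaged 1.28 FPKM in HCD and 0.292 FPKM in ND. It reached the level of 0.5 FPKM for testing through HCD alone, and it is among the 4. Ccl21a was at 6.61, 2.93 and 0.33 FPKM in HCD 1 to HCD 3. In ND 1 to ND 3 it was at 0.0, 1.4 and 0.557 FPKM. Mmrn1 was at 2.09, 1.59 and 0.169 FPKM in HCD 1 to HCD 3. In ND 1 to ND 3 it was at 0.0477, 0.55 and 0.277 FPKM. The list mean was 2.43, 2.23 and 1.05 in HCD 1 to HCD 3, against 1.36, 1.70 and 1.49 in ND 1 to ND 3. HCD 1 and HCD 2 lay above every ND library and HCD 3 below. Pdpn, which encodes podoplanin, had a lower mean in HCD, at 2.42 ± 1.45 FPKM, against 2.55 ± 0.196 FPKM in ND (SD, n = 3 each). Lyve1, a hyaluronan receptor of lymphatic vessels and some macrophages, was at 4.67, 5.48 and 0.532 FPKM in HCD 1 to HCD 3, against 2.73, 2.85 and 1.84 FPKM in ND 1 to ND 3. Prox1, a transcription factor of lymphatic endothelium and of hepatocytes, averaged 7.36 ± 0.645 FPKM in HCD and 6.94 ± 0.937 FPKM in ND (SD, n = 3 each), a difference of 0.08. Vegfc, the main ligand of VEGFR3, was at 10.0, 8.75 and 6.25 FPKM in HCD 1 to HCD 3, against 7.86, 8.55 and 8.43 FPKM in ND 1 to ND 3, a difference of -0.01.

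Among the ligands Vegfa had the highest level per length. It was at 24.8, 44.9 and 38.9 FPKM in HCD 1 to HCD 3, against 49.9, 35.7 and 45.5 FPKM in ND 1 to ND 3. HCD 1 lay below every other library, and the remaining HCD values lay within the ND range (log2 difference -0.29, 95% interval -0.86 to 0.27, adjusted p = 0.805). Without HCD 1 and ND 2 the Vegfa difference was -0.19, and leaving out single libraries gave -0.46 to -0.05. Vegfb and Angpt1 were nearly level between libraries, with a highest value 1.41 and 1.31 times the lowest, and diet differences of 0.07 and 0.05.

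Angpt2, a TEK ligand released by activated endothelium, was at 8.42, 22.1 and 14.8 FPKM in HCD 1 to HCD 3, against 13.6, 9.31 and 17.1 FPKM in ND 1 to ND 3. Esm1, a proteoglycan gene known from tip cells, was at 3.96, 15.6 and 6.91 FPKM in HCD 1 to HCD 3, against 10.3, 5.55 and 8.02 FPKM in ND 1 to ND 3. Both genes spanned a wider range within HCD than between the diets, with differences of 0.11 and -0.01 (adjusted p = 0.944 and 0.996). Pgf, a ligand of FLT1, was at 1.52, 6.59 and 3.02 FPKM in HCD 1 to HCD 3, against 3.70, 2.19 and 3.95 FPKM in ND 1 to ND 3 (difference 0.02; -0.40 without HCD 2). Apln, which encodes the peptide ligand of APLNR, was at 5.04, 14.4 and 8.44 FPKM in HCD 1 to HCD 3, against 10.0, 5.78 and 7.90 FPKM in ND 1 to ND 3 (difference 0.13; -0.21 without HCD 2). For both, HCD held the lowest and the highest value.

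The 5 of 40 tested members lowest in HCD 1, against 13.2% of all genes, were Vegfa, Pgf, Angpt2, Apln and Esm1. Each of them was next lowest in ND 2. This order was picked out after the values were seen, and its share over all genes was not counted. HCD 1 and ND 2 held the most skeletal muscle RNA, with a list mean of 5.86 in HCD 1 and 5.62 in ND 2 on the log2(FPKM + 1) scale. It was 2.98 in HCD 2 and 0.50 to 0.90 in the other 3. Summed over the 10 muscle genes this was 6.87 to 857 FPKM in HCD and 5.23 to 739 FPKM in ND. The hypoxia list mean was 4.52 in HCD 1, 4.94 in HCD 2 and 4.99 in HCD 3, against 5.13, 4.90 and 5.05 in ND 1 to ND 3, so that HCD 1 and ND 2 were its lowest libraries as well. Of the 12 hypoxia genes 11 had a lower mean in HCD, with a median log2 difference of -0.25, and 0 were called. Over all 13417 genes tested, 5942 had a lower mean. In 3 of the 12 all HCD values lay below all ND values, against 6.13% of all genes tested. Car9 had the largest difference of the list, -0.44 (limma adjusted p = 0.794). It was at 2.0, 1.78 and 2.56 FPKM in HCD 1 to HCD 3. In ND 1 to ND 3 it was at 3.02, 3.32 and 3.27 FPKM, so its lowest library was HCD 2 and its highest ND 2. Ldha and Pgk1 averaged 360 ± 56.4 and 293 ± 40.9 FPKM in HCD, against 380 ± 14.2 and 327 ± 28 FPKM in ND (SD, n = 3 each). The part of muscle tissue or of the hypoxia genes in the order of these 5 members was not tested.

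**Figure D3:**
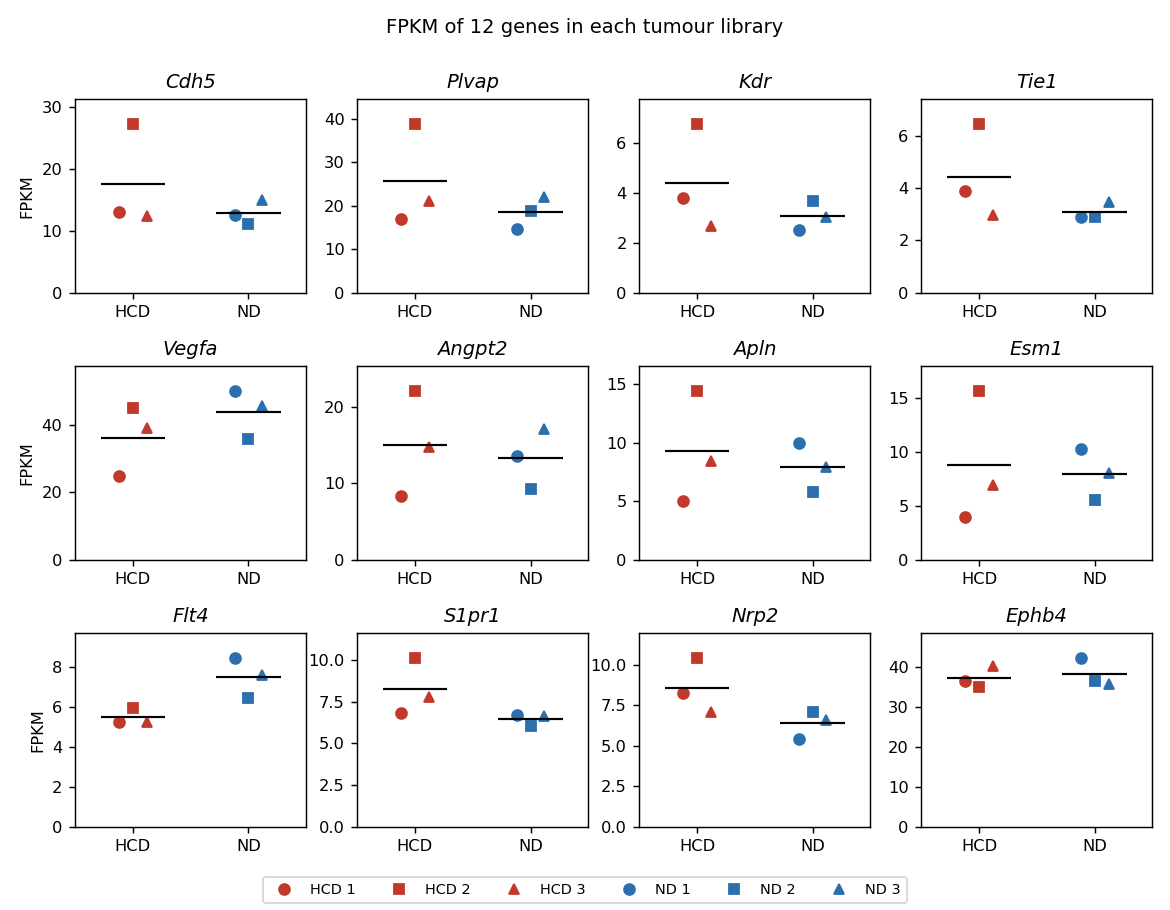
FPKM of 12 genes (linear axes from 0) in the 3 HCD and 3 ND libraries, 1 symbol per library, with a line at the mean of each diet. HCD 2 is the top point for Cdh5, Plvap, Kdr, Tie1, Angpt2, Apln and Esm1, HCD 1 and ND 2 are the lowest points for Vegfa, Angpt2, Apln and Esm1, and the diets do not overlap for Flt4, S1pr1 and, by a narrow margin, Nrp2.

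For co-receptors, G protein coupled receptors and the adaptor Rasip1 the HCD mean exceeded the ND mean in 7 of 7 genes. Nrp2, a co-receptor for VEGFC and semaphorins, was at 8.23, 10.4 and 7.10 FPKM in HCD 1 to HCD 3, against 5.42, 7.10 and 6.61 FPKM in ND 1 to ND 3. Its groups were apart by 7.102 against 7.099 FPKM, which is no visible gap (log2 difference 0.37, 95% interval 0.01 to 0.73, unadjusted p of 0.0466 in limma, adjusted p = 0.794; 0.24 without HCD 2). S1pr1, the receptor of sphingosine 1-phosphate that stabilises vessels and also sits on lymphocytes, was at 6.84, 10.1 and 7.77 FPKM in HCD 1 to HCD 3, against 6.69, 6.02 and 6.64 FPKM in ND 1 to ND 3. All its HCD values lay above all ND values (log2 difference 0.30, adjusted p = 0.794), and the difference was 0.16 without HCD 2. Erg, the third member with HCD wholly above ND, was at 0.692, 1.26 and 0.731 FPKM in HCD 1 to HCD 3, against 0.621, 0.496 and 0.688 FPKM in ND 1 to ND 3 (difference 0.23, adjusted p = 0.794). The Erg difference was 0.10 without HCD 2 and 0.47 at a pseudocount of 0.1. Such a separation upwards was found for 3 of 40 members, against 5.98% of all genes tested.

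Nrp1, a co-receptor for VEGFA, was at 14.4, 17.4 and 10.1 FPKM in HCD 1 to HCD 3, against 12.9, 12.7 and 13.9 FPKM in ND 1 to ND 3, a difference of 0.05. HCD held both the highest and the lowest value. Eng, which encodes the TGF-beta co-receptor endoglin, averaged 6.45 ± 2.60 FPKM in HCD and 4.46 ± 1.05 FPKM in ND (SD, n = 3 each), a difference of 0.41 that was 0.15 without HCD 2. Rasip1, which encodes a junctional adaptor of RAP1 signalling, was at 1.63, 2.68 and 1.76 FPKM in HCD 1 to HCD 3, against 1.34, 1.54 and 1.68 FPKM in ND 1 to ND 3 (difference 0.25, adjusted p = 0.794; 0.10 without HCD 2). Only HCD 1 of the HCD values fell within the ND range. Aplnr and Ramp2, which encode the apelin receptor and a chaperone of the adrenomedullin receptor, differed by 0.10 and 0.20.

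The Notch and ephrin genes did not move as 1 group. Dll4, the Notch ligand of tip cells and arteries, was at 2.13, 4.37 and 3.05 FPKM in HCD 1 to HCD 3, against 2.71, 2.01 and 2.87 FPKM in ND 1 to ND 3 (log2 difference 0.22, adjusted p = 0.828; 0.02 without HCD 2). Notch4, an endothelial Notch receptor, differed by -0.03, and Efnb2, the arterial ligand of EPHB4, by 0.26. Ephb4, the venous ephrin receptor, was the steadiest member, at 36.5, 35.0 and 40.3 FPKM in HCD 1 to HCD 3, against 42.1, 36.5 and 35.6 FPKM in ND 1 to ND 3. Its highest value was 1.2 times its lowest, its difference was -0.03 (95% interval -0.24 to 0.18), and HCD 2 was its lowest library. Its level per length lay above that of Cdh5 in every library; which cells it came from was not tested. Beyond these members 10 genes of the Notch pathway were tested; 5 were higher on average in HCD, 5 were lower, and 0 were called. The ligand gene Jag1 averaged 31.9 ± 1.09 FPKM in HCD and 36.9 ± 0.919 FPKM in ND (difference -0.21, limma adjusted p = 0.794). Rbpj averaged 18.5 ± 0.757 FPKM in HCD and 20.4 ± 1.34 FPKM in ND (SD, n = 3 each). All HCD values lay below all ND values for Jag1 and Notch2 (Notch2 difference -0.15). These were 2 of the 10 genes, against 6.13% of all genes tested.

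Of the transcription factors, Sox18, a SOX factor of blood and lymph vessels, was at 7.49, 11.4 and 5.19 FPKM in HCD 1 to HCD 3, against 5.4, 6.33 and 5.87 FPKM in ND 1 to ND 3. HCD held both ends of the range (log2 difference 0.34, adjusted p = 0.795; 0.08 without HCD 2). Fli1, an ETS factor of endothelium and of blood cells, was at 2.56, 3.77 and 1.87 FPKM in HCD 1 to HCD 3, against 1.60, 2.87 and 2.87 FPKM in ND 1 to ND 3, a difference of 0.11. Sox7 differed by 0.05. Below the level for testing, Sox17 averaged 0.348 ± 0.160 FPKM in HCD and 0.249 ± 0.0485 FPKM in ND, and Tal1 averaged 0.184 ± 0.0331 FPKM in HCD and 0.159 ± 0.0193 FPKM in ND (SD, n = 3 each). Of 12 other tested transcription factor genes known from endothelium 8 had a higher mean and 0 were called; Klf4 and Hhex, the most abundant, differed by -0.18 and -0.05.

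To set members beside the endothelial RNA of their own library, each was divided by the geometric mean of 8 core genes (Pecam1, Cdh5, Tie1, Kdr, Emcn, Esam, Egfl7 and Clec14a). The core mean was 4.14, 6.48 and 3.36 FPKM in HCD 1 to HCD 3, against 2.90, 3.82 and 3.84 FPKM in ND 1 to ND 3. Outside the core stood 34 members; the mean log2 ratio was higher in HCD for 11, lower for 22 and level for Efnb2, and the median difference was -0.18. The core itself had a higher mean in HCD in 8 of 8 genes, so genes level between the diets fall on this scale. Of 13267 tested genes outside the core and above 0 in every library, 8.0% were higher and 92.0% lower, with a median of -0.34. Flt4 was 1.27, 0.916 and 1.56 times the core in HCD 1 to HCD 3, against 2.91, 1.68 and 1.97 times in ND 1 to ND 3, a difference in log2 ratio of -0.81 without overlap. It was the 1 member of 34 whose HCD ratios all lay below the ND ratios, against 6.75% of those genes; 0 of 34 lay wholly above, against 0.196%. Vegfa was 6.01, 6.92 and 11.6 times the core in HCD 1 to HCD 3, against 17.2, 9.35 and 11.8 times in ND 1 to ND 3, a difference of -0.66 with overlap through HCD 3. S1pr1, Nrp2 and Sox18 differed by -0.02, 0.06 and 0.02 on this scale. These ratios are a description without a test, and a library with little endothelial RNA has higher ratios for any gene of the tumour cells.

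Of 26 tested endothelial genes outside the members, 20 had a higher mean in HCD, against 55.7% of all genes tested. Their log2 differences ran from -0.16 to 0.49, with a median of 0.23, and 0 were called; the list mean was 2.26, 2.69 and 1.99 in HCD 1 to HCD 3, against 1.99, 2.20 and 2.17 in ND 1 to ND 3. Ecscr and Podxl, the most abundant, differed by -0.04 and -0.07, against the direction of most of the list. Aqp1 averaged 12.1 ± 3.29 FPKM in HCD and 8.78 ± 0.541 FPKM in ND (SD, n = 3 each), a difference of 0.39 (limma adjusted p = 0.794). It was the 1 gene of the 26 with all HCD values above all ND values, against 5.98% of all genes tested. Of 16 tested genes of VEGF and angiopoietin signalling 5 had a higher and 11 a lower mean, with 0 called. Thbs1, which encodes an inhibitor of angiogenesis, averaged 93.2 ± 6.32 FPKM in HCD and 76.1 ± 13.4 FPKM in ND (SD, n = 3 each), a difference of 0.30 (adjusted p = 0.794), and Hif1a differed by -0.09.

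By list mean, HCD 2 was also the highest library for other cell types of the host. The mural list, for cells that wrap vessels, had a mean of 2.62, 3.10 and 2.59 in HCD 1 to HCD 3, against 2.64, 2.76 and 2.70 in ND 1 to ND 3; Rgs5 and Acta2 averaged 38.8 ± 11.8 and 32.3 ± 10.3 FPKM in HCD, against 34.5 ± 7.45 and 26.0 ± 2.49 FPKM in ND (SD, n = 3 each). Summed over its 10 genes it was 83.9 to 141 FPKM in HCD and 87.0 to 99.0 FPKM in ND. Of 9 tested mural genes 6 had a higher mean in HCD and 3 a lower one. The mural gene Cspg4 differed by -0.19 and was highest in ND 1. All its HCD values lay below all ND values, which held for 6.13% of all genes tested. The macrophage mean was 4.67, 5.41 and 4.45 in HCD 1 to HCD 3, against 3.93, 4.86 and 4.68 in ND 1 to ND 3. Lyz2 and C1qa averaged 257 ± 137 and 150 ± 53.7 FPKM in HCD, against 164 ± 74.7 and 102 ± 38.5 FPKM in ND (SD, n = 3 each). Summed over 10 genes the list was at 427 to 1021 FPKM in HCD and 260 to 618 FPKM in ND. Of these 10 macrophage genes 8 had a higher mean in HCD, against 55.7% of all genes tested. The other 2, Itgam and Mrc1, differed by -0.13 and -0.02. T cell means were 2.38, 2.88 and 1.82 in HCD, against 0.89, 2.03 and 2.17 in ND, with sums of 28 to 70.9 FPKM in HCD and 9.19 to 40.2 FPKM in ND. All 10 T cell genes had a higher mean in HCD, against 55.7% of all genes tested. Their median log2 difference was 0.66, against 0.17 for the members. Fibroblast means were 3.83, 4.30 and 3.07 in HCD, against 3.80, 3.57 and 3.70 in ND. Of these 10 fibroblast genes 4 had a higher mean in HCD and 6 a lower one, with a median log2 difference of -0.06. Dcn averaged 775 ± 118 FPKM in HCD and 832 ± 73.3 FPKM in ND (SD, n = 3 each). Its lowest library was HCD 2, at 682 FPKM. Adipocyte means were 2.49, 3.00 and 1.62 in HCD, against 1.74, 2.44 and 1.62 in ND. They rest on 3 of 8 listed genes, Cfd, Fabp4 and Pparg. Adipoq, Cidec, Lep, Plin1 and Retn averaged below 0.5 FPKM over the 6 libraries. Of these, Adipoq and Retn were highest in HCD 1, and Cidec, Lep and Plin1 in HCD 2.

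No gene of these lists was called. Of 8 platelet genes, Pf4 and Ppbp were tested (list mean 3.45 to 3.88 in HCD and 3.21 to 3.86 in ND), while Gp9 and Itga2b, which define platelets and megakaryocytes, averaged below 0.5 FPKM over the 6 libraries. Itga2b reached 0.621 FPKM in HCD 2 and 0.592 FPKM in ND 2. Red blood cell genes peaked in HCD 3 instead, with means of 2.63, 3.30 and 4.14 in HCD 1 to HCD 3, against 2.64, 3.80 and 3.07 in ND 1 to ND 3. The hepatoma list stayed between 6.78 and 6.97 in HCD and between 6.78 and 7.03 in ND. The part of these cell types in the values of the endothelial genes was not tested.

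**Figure D4:**
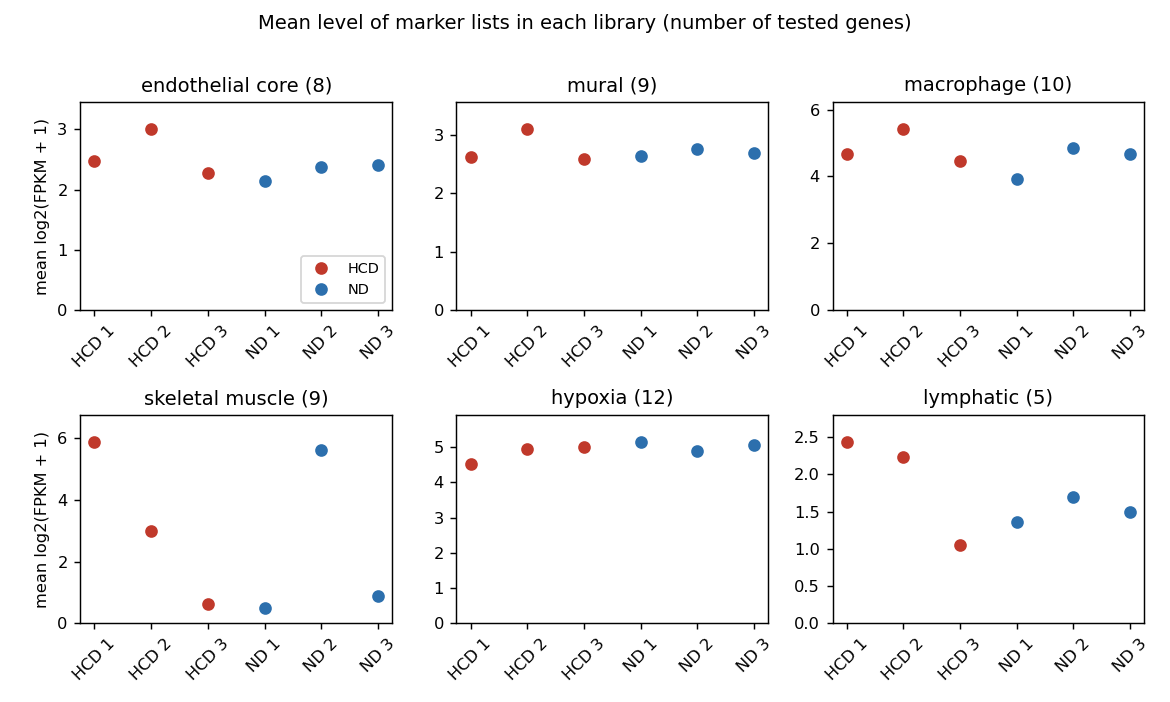
Mean log2(FPKM + 1) of the tested genes of 6 marker lists in each library, with HCD to the left of ND and axes from 0. HCD 2 is highest for the endothelial core, mural and macrophage lists, HCD 1 and ND 2 are highest for skeletal muscle and lowest for hypoxia, and HCD 1 and HCD 2 are highest for the lymphatic list.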

How the data were processed

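RNA was taken from 6 tumours, and paired-end libraries were made with a TruSeq kit, per the labels' protocols. The deposited table holds FPKM values in a column for each tumour, as the authors computed them. Per the submitters' processing notes, edgeR, HTSeq, TopHat2 2.0.9 and CASAVA 1.8 were used with mm10; what each did is not said. Annotation and strand use are not given in the sources used here. Reads of a gene and an antisense partner may therefore be mixed.

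FPKM values are not counts, so limma 3.58.1 (R 4.3.3) was run on log2(FPKM + 1), with diet as its only term, a variance trend and two-sided p-values, which were adjusted by Benjamini-Hochberg (threshold 0.05) over the 13417 genes averaging 0.5 FPKM or more. Differences are HCD minus ND on that scale, which understates changes of low genes. The fit was tested on simulated data with independent noise for each gene. That simulation held no shift shared by the genes of a library, so it does not speak of such shifts. Adjusted p-values in the report come from this fit; for 3 against 3, the smallest two-sided p of an exact permutation test is 0.1. The members and all gene lists were chosen with earlier results of these data known.

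Reads were recovered by finding, for each library, the fragment total at which low values became whole at GENCODE M21 exon lengths; 49.6% to 52.5% of values of 1 to 20 reads did so. For all 42 members 1 length made all 6 values whole, within 0.02 plus 2e-06 per read, giving 29 to 11852 reads. These lengths were 0.709 to 2.64 times the M21 exon length, so levels of different genes compare only loosely. Read numbers speak of counting error only.

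Values in every library are given for the 2 most abundant members of each role, the 6 with the lowest p, those whose groups do not overlap and 8 set by name, and for some further members. Of the other lists, in which no gene was called, the rule names the 2 most abundant genes. Those of some cell types are given by the list mean alone. Car9, Ccl21a, Mmrn1, Cspg4, Itgam, Mrc1, Notch2, Aqp1, Rbp4 and Apoa1 are named as well, after their values were seen. So are genes below the level for testing. Alternatives were a pseudocount of 0.1, no filter, a filter of 1 FPKM, 2 scalings, the replicate number as a block, no variance trend, leaving out each library, and, chosen after seeing the data, leaving out HCD 1 and ND 2 together.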

Additional observations from a re-analysis of the deposited data

How the results depend on the processing

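No member was called in any setting run, and the lowest adjusted p of a member was 0.481, for Flt4 without ND 2. The count of all genes called was 0 in each direction except 1 lower without ND 2, S100a9, named after its values were seen; leaving out each library gave 0 to 1 genes lower. Unadjusted p-values below 0.05 went to 343 genes in the higher and 446 in the lower direction. Tested members with a higher mean numbered 34, and 23 to 36 with a library left out, the fewest without HCD 2; the median difference of 0.17 then ranged from 0.03 to 0.29. It was 0.26 at a pseudocount of 0.1.

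Of 292 values under alternatives of the 21 members that the rule for named genes picks, 276 kept their sign and 16 turned, 14 of these by leaving out 1 library. Without 1 library the difference ranged from -0.48 to 0.39 for Esm1, -0.19 to 0.45 for Angpt2, -0.01 to 0.52 for Cdh5, -0.08 to 0.05 for Ephb4, -0.08 to 0.28 for Fli1, -0.07 to 0.14 for Flt1, -0.12 to 0.25 for Nrp1 and -0.05 to 0.16 for Vwf. Of members outside the 21, Pgf and Apln turned to -0.40 and -0.21 without HCD 2. Without HCD 1 and ND 2, Esm1 was at 0.18 and Nrp1 at -0.01. The cause was not tested.

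With the replicate number as a block, 0 members and 0 genes were called. The numbers share no stated origin, and the deviations of same-numbered libraries correlated at -0.19, 0.142 and 0.0588, so they were not taken as pairs. At 29 to 46 reads Tal1 has the least depth.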
